A study of Mus musculus with 2 samples.

Results

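The 10 genes described here, Col4a1, Col4a2, Col8a1, Col15a1, Col18a1, Hspg2, Nid1, Nid2, Lamb1 and Lamc1, encode basement membrane proteins and the network-forming collagen VIII, and were chosen by name from the 32285 genes counted. They were measured in 2 droplet libraries of dissociated mitral valve leaflets from C57BL/6J mice at 1 month of age, of which 1 pooled 3 Fbn1 C1039G/+ mice and 1 pooled 5 WT (Fbn1 +/+) mice. Fbn1 encodes fibrillin-1, the backbone of extracellular microfibrils, and the C1039G allele, carried in the heterozygous state, replaces a cysteine and is used as a mouse model of Marfan syndrome. The 3′ counts do not read the changed base, so they do not check the genotype. Each genotype had 1 library, so no difference below could be tested against a spread between mice: intervals in parentheses are 95% intervals that cover counting error only.

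Basement membranes are thin matrix sheets beneath endothelium and around contractile cells. Laminin trimers polymerise on the cell surface, collagen IV trimers of chains such as those from Col4a1 and Col4a2 form a second, covalently linked network, and nidogens (Nid1, Nid2) and the heparan sulfate proteoglycan perlecan (Hspg2) join these networks. Lamb1 and Lamc1 encode a laminin beta and a laminin gamma chain. Col15a1 and Col18a1 encode the multiplexins, collagens that carry heparan sulfate or chondroitin sulfate chains and whose ends release restin and endostatin, and Col8a1 encodes a short-chain collagen that builds lattices, as in the membrane under the corneal endothelium. In heart valves the leaflet surface is covered by endothelium, and interstitial cells in the core make most of the collagen.

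The Fbn1 C1039G/+ library held 103663375 unique molecular identifiers (UMIs, 1 for each captured transcript) in 9744 barcodes, and the WT library held 100969482 in 9509. Barcodes under 1000 UMIs or over 20% mitochondrial UMIs were removed, which left 9540 and 9395 with a median of 9778 and 9827 UMIs. The libraries shared 17 barcode sequences. Barcodes with at least 1% of UMIs from Dcn, Col1a1, Col1a2 and Col3a1 were called interstitial (7768 and 7557). Of the rest, those with at least 5 UMIs of Pecam1, Cdh5 and Emcn were called endothelial (318 and 250), and those with at least 10 UMIs of C1qa, C1qb and C1qc were called macrophage (880 and 800). Barcodes that met both of these rules (10 and 13) were put in neither class. Levels are in CPM, a gene's UMIs per 1000000 UMIs of its class in that library, with no correction for transcript length, since each transcript is counted at its 3′ end.

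The endothelial class was checked with 10 genes that the rule did not use. Kdr, Tie1, Tek, Egfl7, Cldn5, Esam, Eng, Vwf, Ptprb and Plvap, which mark blood vessel and valve endothelium, summed to 5374 CPM in Fbn1 C1039G/+ and 5535 CPM in WT endothelial barcodes, against 447 and 312 CPM in interstitial barcodes of the same libraries, and all 10 were detected. The 6 interstitial check genes did not separate the classes as a sum, at 15382 CPM in Fbn1 C1039G/+ and 11783 CPM in WT endothelial barcodes, against 15335 and 14535 CPM in interstitial barcodes, and Vim and Pdgfra were high in endothelial barcodes. Of these genes, Lum, a fibrillar collagen-binding proteoglycan, was at 304 CPM in Fbn1 C1039G/+ and 292 CPM in WT endothelial barcodes, against 2500 and 2632 CPM in interstitial barcodes. The list also held Col5a1, Fn1 and Postn, and a single gene picked from it does not check the class. Endothelial barcodes also held the 4 interstitial rule genes at 3569 CPM in Fbn1 C1039G/+ and 2897 CPM in WT, and macrophage barcodes at 563 and 1028 CPM. Hemoglobin UMIs, a sign of red cells or their RNA, were at 767 CPM in Fbn1 C1039G/+ and 35.7 CPM in WT endothelial barcodes. In the interstitial class, 141 Fbn1 C1039G/+ and 65 WT barcodes also carried at least 5 of the endothelial UMIs. Values with such barcodes left out are given with the results they touch, as are values without barcodes rich in hemoglobin.

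The members fell into 3 kinds by source. Col18a1 and Hspg2 had higher levels in endothelial than in interstitial barcodes of both libraries, Col8a1 and Col15a1 had far lower ones, and the other 6 lay within 2-fold. With a rule of at least 2-fold and a counting interval that excludes 1, 2 of 10 members were higher and 2 of 10 lower in endothelial barcodes in each library. Among all genes measured by the same rule, 14.9% were higher and 10.2% lower in Fbn1 C1039G/+, and 15.3% were higher and 10.3% lower in WT, so the members' shares were near the background and the result lies in which member went which way. A gene counted as measured with at least 20 CPM in either class and at least 50 UMIs over both. Col8a1 and Col15a1 were under 20 CPM in endothelial barcodes and passed this filter through the interstitial class alone. Their lower calls follow in part from that. The median log2 ratio of all measured genes was 0.22 in Fbn1 C1039G/+ and 0.25 in WT, and that of the members was 0.56 and 0.14, all on the log2(CPM + 1) scale of endothelial over interstitial.

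**Figure D1:**
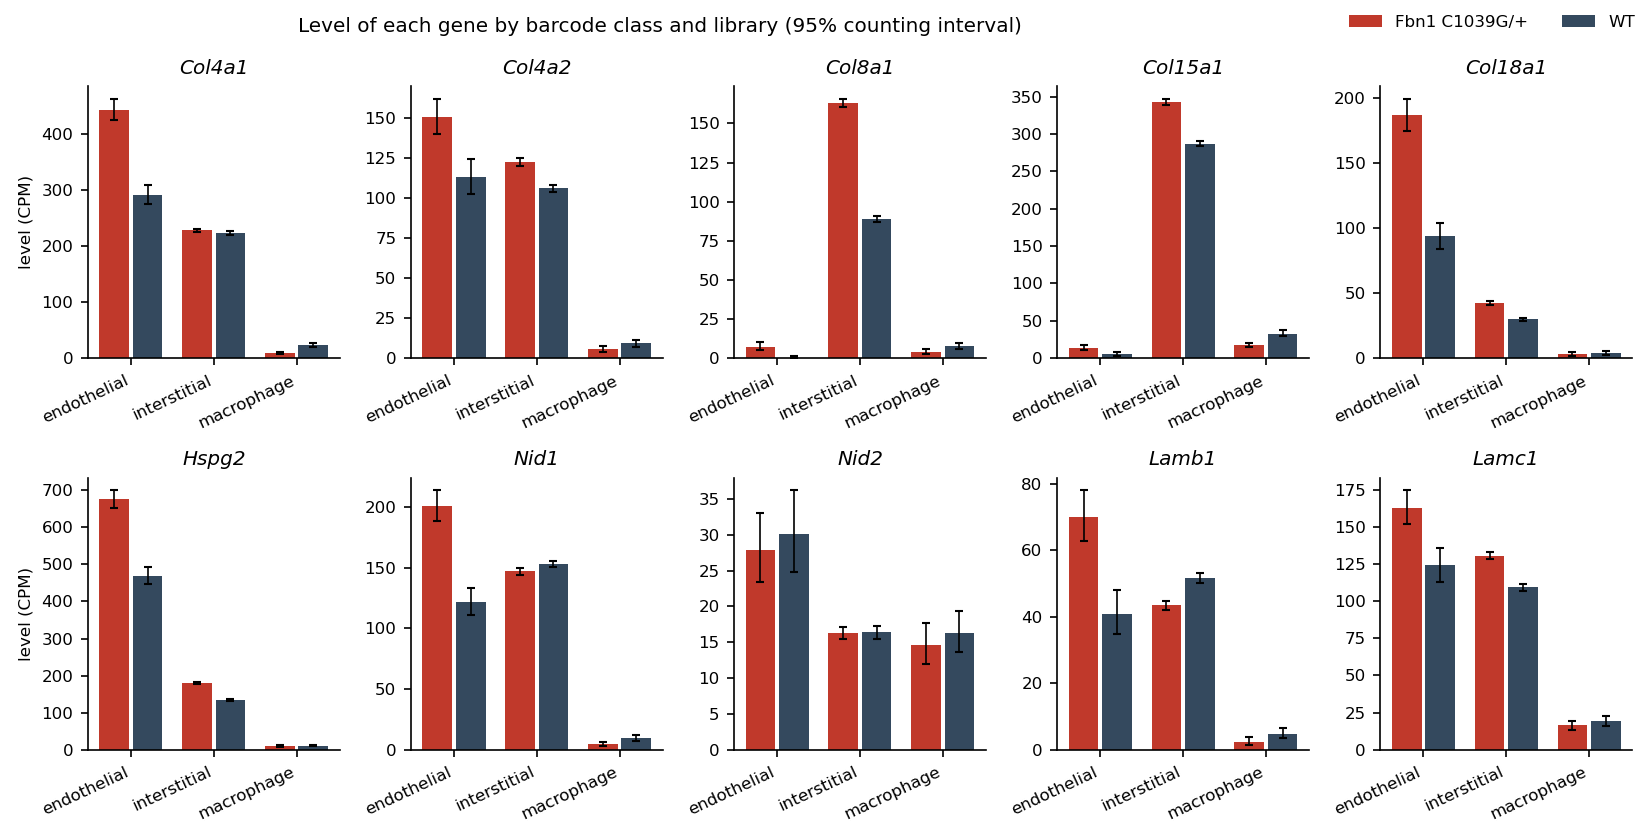
Level (CPM, linear axes from 0) of each of the 10 genes in endothelial, interstitial and macrophage barcodes, with Fbn1 C1039G/+ bars left of WT bars and 95% counting intervals as whiskers. Hspg2 and Col18a1 stand highest in endothelial barcodes, Col8a1 and Col15a1 in interstitial barcodes, and Nid2 alone has a macrophage level close to its interstitial level.

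Perlecan was the most abundant member in the endothelium. Hspg2 was at 676 CPM (653 to 699) in Fbn1 C1039G/+ endothelial barcodes and 179 CPM (176 to 182) in Fbn1 C1039G/+ interstitial barcodes, a ratio of 3.78 (3.64 to 3.92). In WT it was at 469.8 CPM (448 to 492) in endothelial and 135 CPM (132 to 137) in interstitial barcodes, a ratio of 3.49 (3.32 to 3.67). The endothelial level was higher in both libraries and the intervals of the classes did not overlap. After each barcode was thinned to 3000 UMIs, which puts classes of different depth on the same footing and left out 8 and 4 endothelial barcodes, 78.7% of Fbn1 C1039G/+ and 65.9% of WT endothelial barcodes still held a Hspg2 UMI, against 38.1% and 31.5% of interstitial barcodes. Before thinning these shares were 94.0% and 91.6% against 73.4% and 66.5%, and in macrophage barcodes, which served as a level of stray UMIs, they were 6.36% and 5.62%.

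Col18a1 (chr10:77052178-77166548, minus strand), the precursor of endostatin, had the largest endothelial excess among the members in Fbn1 C1039G/+. Its level was 186 CPM (174 to 199) in endothelial and 42.5 CPM (41.2 to 43.9) in interstitial barcodes of Fbn1 C1039G/+, a ratio of 4.38 (4.07 to 4.71), and 93.5 CPM (84.0 to 104) and 29.8 CPM (28.6 to 31.0) in WT, a ratio of 3.14 (2.80 to 3.51). Thus both multiplexins were detected in the valve, with the higher level in opposite classes. Col15a1 was at 13.8 CPM (10.7 to 17.5) in endothelial and 343 CPM (339 to 347) in interstitial barcodes of Fbn1 C1039G/+, and at 5.28 CPM (3.23 to 8.16) and 287 CPM (283 to 291) in WT. The ratios were 0.040 in Fbn1 C1039G/+ and 0.018 in WT, and a few barcodes carried most of the endothelial UMIs, with 61.2% of 67 UMIs and 65.0% of 20 UMIs in 5 barcodes each. Macrophage barcodes, which should lack the gene, held Col15a1 at 17.4 and 33.1 CPM, so its endothelial level was no higher than this stray level.

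Col8a1 (chr16:57624258-57754737, minus strand) was the member with the lowest endothelial level. Fbn1 C1039G/+ endothelial barcodes held 36 Col8a1 UMIs, or 7.39 CPM (5.18 to 10.2), of which 19 lay in 1 barcode, and WT endothelial barcodes held 1 UMI, or 0.264 CPM. Interstitial barcodes held 163 CPM (160.3 to 166) in Fbn1 C1039G/+ and 88.9 CPM (86.9 to 91.0) in WT, and macrophage barcodes 4.13 and 7.60 CPM. The gene was also uneven within the interstitial class: 37.1% of Fbn1 C1039G/+ and 25.9% of WT interstitial barcodes held a UMI, fewer than for Nid1 (66.6% and 68.3%), whose Fbn1 C1039G/+ level was lower. Outside the 3 classes, 79 Fbn1 C1039G/+ and 117 WT barcodes with melanocyte transcripts (Dct, Pmel, Mlana, Tyrp1) held Col8a1 at 130.5 and 91.0 CPM, near its interstitial level, while their Col15a1 was at 43.0 and 11.7 CPM and their Col4a1 at 22.3 and 20.8 CPM.

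The collagen IV pair was detected in both classes. Col4a1 was at 443 CPM (424 to 462) in endothelial and 228 CPM (225 to 231) in interstitial barcodes of Fbn1 C1039G/+, and at 292 CPM (275 to 309) and 223 CPM (219.7 to 226) in WT. Its ratio of endothelial to interstitial was 1.94 (1.86 to 2.03) in Fbn1 C1039G/+ and 1.31 (1.23 to 1.39) in WT. Col4a2 was closer to even, with 150.4 CPM (139.8 to 162) against 122 CPM (120.0 to 125) in Fbn1 C1039G/+ and 113 CPM (102 to 124) against 106 CPM (104 to 108) in WT, ratios of 1.23 (1.14 to 1.33) and 1.06 (0.963 to 1.17). Per Col4a2 UMI, endothelial barcodes held 2.94 Col4a1 UMIs (2.71 to 3.21) in Fbn1 C1039G/+ and 2.59 (2.31 to 2.90) in WT, against 1.86 (1.82 to 1.91) and 2.10 (2.05 to 2.16) in interstitial barcodes, so in each library the chains' transcript ratio was higher in the endothelium. These are ratios of captured 3′ ends, not of protein chains.

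Col4a1 and Col4a2 lie head to head, and their start regions are shown because the pair shares them. On mm10 (GRCm38, GENCODE M21), Col4a1 spans chr8:11198423-11312826 on the minus strand and Col4a2 spans chr8:11312805-11449287 on the plus strand, and the annotated genes overlap at their 5′ ends. The RefSeq starts lie 21 bases apart, so the windows of 250 bases before to 50 bases after each start (chr8:11312777-11313076, minus strand, and chr8:11312555-11312854, plus strand, GRCm38.p6) share 78 bases. Both are printed 5′ to 3′ on their own strand, with the shared bases in capitals.
Col4a1: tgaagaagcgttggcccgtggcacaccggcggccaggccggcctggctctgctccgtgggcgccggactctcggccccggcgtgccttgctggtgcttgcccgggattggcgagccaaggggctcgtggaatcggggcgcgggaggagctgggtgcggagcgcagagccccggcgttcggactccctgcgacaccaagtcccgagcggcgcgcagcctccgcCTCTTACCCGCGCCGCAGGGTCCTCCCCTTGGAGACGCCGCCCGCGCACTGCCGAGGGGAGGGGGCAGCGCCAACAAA
Col4a2: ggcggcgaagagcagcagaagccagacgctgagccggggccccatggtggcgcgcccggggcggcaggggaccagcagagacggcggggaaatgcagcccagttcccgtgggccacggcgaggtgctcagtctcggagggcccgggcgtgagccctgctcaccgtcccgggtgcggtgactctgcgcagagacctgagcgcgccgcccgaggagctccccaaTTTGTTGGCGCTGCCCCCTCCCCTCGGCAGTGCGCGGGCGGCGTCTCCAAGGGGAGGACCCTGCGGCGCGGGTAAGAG
The capital stretches are reverse complements of each other. The GC box GGGCGG, searched on both strands, occurred 1 time in the Col4a1 window and 3 times in the Col4a2 window, and CCAAT occurred 1 time in each. These motifs are common: 35.7% of the 32851 RefSeq windows of the same length hold GGGCGG and 37.4% hold CCAAT.

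Hspg2 and Col15a1, from opposite sides of the source contrast, are shown for comparison. Hspg2 spans chr4:137468769-137570630 and Col15a1 spans chr4:47208161-47313167, both on the plus strand. Their windows are chr4:137468553-137468852 and chr4:47207762-47208061 (plus strand, GRCm38.p6), and capitals mark GGGCGG. The Hspg2 window holds the GENCODE start of its gene, whereas the Col15a1 window, set by the RefSeq start, ends before the GENCODE start.
Hspg2: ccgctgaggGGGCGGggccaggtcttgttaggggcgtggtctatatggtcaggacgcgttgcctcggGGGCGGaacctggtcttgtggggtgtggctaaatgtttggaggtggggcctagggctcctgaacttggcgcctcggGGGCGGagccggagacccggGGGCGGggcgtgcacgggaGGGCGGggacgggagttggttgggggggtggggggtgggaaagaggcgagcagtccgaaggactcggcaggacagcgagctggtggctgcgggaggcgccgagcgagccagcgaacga
Col15a1: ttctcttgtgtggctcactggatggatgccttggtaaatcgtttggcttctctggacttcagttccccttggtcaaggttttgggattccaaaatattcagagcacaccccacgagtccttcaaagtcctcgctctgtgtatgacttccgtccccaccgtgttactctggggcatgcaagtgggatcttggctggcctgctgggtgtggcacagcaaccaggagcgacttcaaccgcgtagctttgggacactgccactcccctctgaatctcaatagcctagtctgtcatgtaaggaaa
The Hspg2 window held GGGCGG 5 times and the Col15a1 window 0 times. On either strand, neither held CCAAT, the TATA box TATAAA (in 13.6% of all windows), the ETS core CCGGAA (in 14.9%) or the GATA motif AGATAA (in 11.2%). GGGCGG did not follow the source contrast over the members: the Col8a1 window held it 4 times, and the windows of Col18a1 held it 3 times and 0 times. RefSeq windows were matched for 8 of the 10 members, not for Nid2 and Lamc1.

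Laminin and nidogen transcripts came from both classes. Lamb1 lies at chr12:31265234-31329644 and Nid1 at chr13:13437551-13512269, both on the plus strand, and Lamc1 at chr1:153218922-153332786 on the minus strand. Lamb1 was at 70.2 CPM (63.0 to 78.0) in endothelial and 43.5 CPM (42.1 to 44.9) in interstitial barcodes of Fbn1 C1039G/+, but at 41.0 CPM (34.8 to 47.9) and 51.6 CPM (50.1 to 53.2) in WT. Nid1 had the same pattern, at 201 CPM (188 to 214) and 147 CPM (144 to 149.5) in Fbn1 C1039G/+, against 122 CPM (111 to 134) and 153 CPM (150.5 to 156) in WT. For both genes the endothelial level was the higher in Fbn1 C1039G/+ (ratios 1.61 and 1.37) and the lower in WT (ratios 0.794 and 0.797), all within 2-fold. Lamc1, at 163 CPM against 130.5 CPM in Fbn1 C1039G/+ and 124 CPM against 109 CPM in WT, differed little between classes, with ratios of 1.25 and 1.14. Relative to the median gene, the Lamc1 ratio was 1.07 in Fbn1 C1039G/+ and 0.958 in WT and that of Col4a2 was 1.05 and 0.897, so in WT, though not in Fbn1 C1039G/+, their direction depends on the scaling.

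Nid2 had the lowest interstitial level of the members and was the only member whose macrophage level was close to it. It was at 27.9 CPM (23.4 to 33.0) in endothelial, 16.3 CPM (15.5 to 17.2) in interstitial and 14.6 CPM in macrophage barcodes of Fbn1 C1039G/+, and at 30.1 CPM (24.8 to 36.2), 16.4 CPM (15.5 to 17.3) and 16.4 CPM in WT. Its macrophage to interstitial ratio was 0.895 (0.728 to 1.09) in Fbn1 C1039G/+ and 0.998 (0.826 to 1.196) in WT, whereas those of the other 9 members ran between 0.0254 and 0.126 in Fbn1 C1039G/+ and between 0.0621 and 0.175 in WT. These 9 were at least 2-fold lower in macrophage barcodes in each library, having passed the level filter through the interstitial class, against a background of 24.7% of genes in Fbn1 C1039G/+ and 23.8% in WT, and 0 were higher (16.8% and 17.1% of genes); Nid2 stayed under 20 CPM in both classes. The Nid2 UMIs were spread over barcodes: the 5 richest macrophage barcodes held 12.3% and 13.2% of them, against 56.1% and 50.5% for Col4a1. The Nid2 gene (chr14:19751265-19811787, plus strand) overlaps Rtraf on the other strand, as Col18a1 overlaps Slc19a1, and whether strand was used in counting is not given in the sources used here.

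Over the whole valve suspension, the interstitial class held most UMIs of every member, as of all genes (83.5% in Fbn1 C1039G/+ and 82.0% in WT). Endothelial barcodes carried 4.71% of all UMIs in Fbn1 C1039G/+ and 3.75% in WT. They carried 19.0% and 11.8% of Col18a1 UMIs, 17.0% and 13.3% of Hspg2 UMIs, and 9.47% and 5.34% of Col4a1 UMIs. At the other end they carried 0.25% and 0.01% of Col8a1 UMIs. Interstitial barcodes held 76.8% to 97.2% of each member's UMIs in Fbn1 C1039G/+ and 81.9% to 96.7% in WT, below the all-gene share for Col18a1 (76.8% and 81.9%) and, in Fbn1 C1039G/+, Hspg2 (80.1%).

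**Figure D2:**
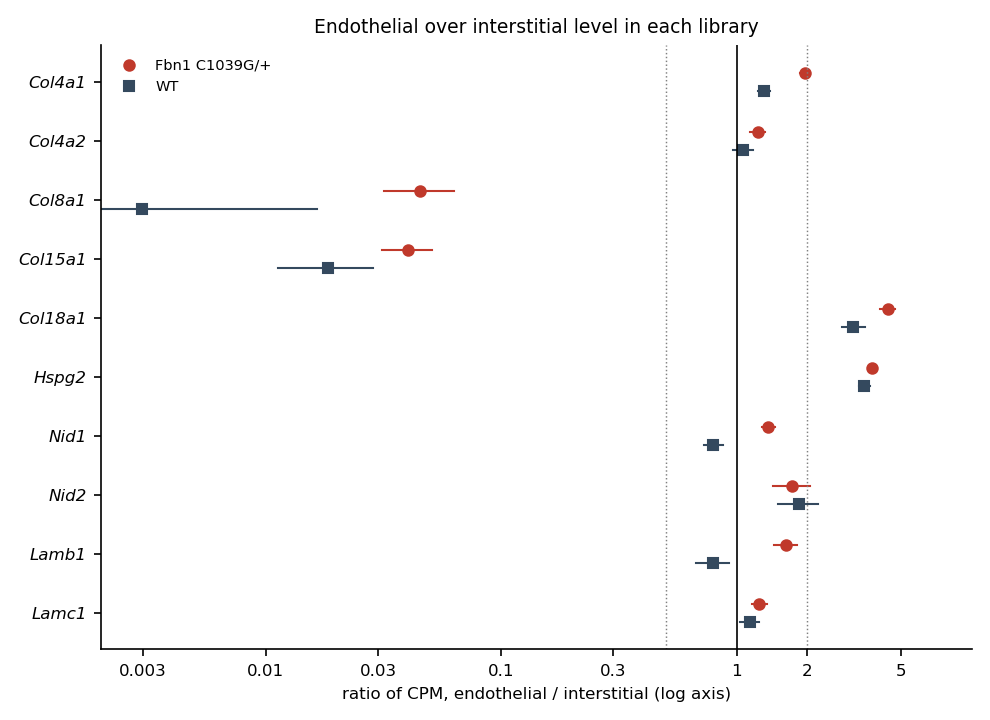
Ratio of CPM in endothelial over interstitial barcodes (log axis) for each gene, with circles for Fbn1 C1039G/+, squares for WT, lines for 95% counting intervals and dotted lines at 2-fold. Col18a1 and Hspg2 lie right of the dotted line in both libraries, Col8a1 and Col15a1 far left, and Nid1 and Lamb1 lie on opposite sides of 1 in the libraries. The WT interval of Col8a1, which rests on 1 UMI, runs past the left edge.

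The comparison of genotypes asks whether a fibrillin-1 mutation goes with other levels of these genes in valve cells. In endothelial barcodes, Col18a1, Lamb1, Nid1 and Col4a1 were at least 1.5-fold higher in Fbn1 C1039G/+ than in WT with intervals that exclude 1, and no member was lower by that rule. This is 4 of 8 measured members, where 3.22% of 7240 measured genes were higher and 3.23% lower by the same rule. The median log2 ratio of the 8 members was 0.56, against 0.016 over all measured genes. The remaining pair, Col8a1 and Col15a1, stayed under 20 CPM in endothelial barcodes of both libraries.

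Col18a1 showed the largest endothelial ratio among the measured members, 1.99 (1.76 to 2.26), from 186 CPM in Fbn1 C1039G/+ and 93.5 CPM in WT. The ratio was 1.71 (1.41 to 2.09) for Lamb1, 1.64 (1.47 to 1.84) for Nid1 and 1.52 (1.41 to 1.63) for Col4a1. Hspg2, at 1.44 (1.36 to 1.52), Col4a2, at 1.33 (1.18 to 1.51), and Lamc1, at 1.31 (1.17 to 1.47), were also higher, but under 1.5-fold. Nid2 was the exception, at 0.927 (0.717 to 1.20), an interval that includes 1 but not the 1.31 to 1.99 of the others, although it was 1.61 in barcodes with a Y-linked UMI and no Xist and 1.36 without Prox1. UMIs were spread over many barcodes: the 5 richest barcodes held from 9.38% (Hspg2) to 25.6% (Col18a1) of the UMIs of these 8 genes in Fbn1 C1039G/+, and from 13.0% to 27.4% in WT.

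Detection at equal depth was also higher in Fbn1 C1039G/+ for Col18a1, Lamb1 and Nid1, while the share for Col4a1 is not given here. With barcodes thinned to 3000 UMIs, 22.6% (18.0% to 27.6%) of Fbn1 C1039G/+ and 16.3% (11.9% to 21.5%) of WT endothelial barcodes held a Col18a1 UMI, and 17.7% (13.7% to 22.5%) and 8.54% (5.36% to 12.8%) held a Lamb1 UMI. For Nid1 the shares were 33.9% (28.6% to 39.4%) and 24.4% (19.2% to 30.3%). These Clopper-Pearson intervals take barcodes as independent and do not cover differences between mice. Whether they overlap is therefore no test of genotype. The raw shares, at median depths of 10918.5 and 10882.5 UMIs, were 46.5% and 34.8% for Col18a1, 44.7% and 26.0% for Lamb1 and 73.9% and 60.8% for Nid1, while in macrophage barcodes they were 4.50% or less for these 3 genes.

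Several measured features differ between the endothelial sets. Contractile genes (Acta2, Tagln, Cnn1), which mark smooth muscle and activated interstitial cells, summed to 193 CPM in Fbn1 C1039G/+ and 32.5 CPM in WT endothelial barcodes, capillary genes (Cd36, Fabp4, Gpihbp1, Aqp1, Car4, Rgcc) to 1091 and 1507 CPM, and cycling genes (Top2a, Mki67, Cenpf, Birc5) to 314 and 252 CPM. With the 20 Fbn1 C1039G/+ and 8 WT barcodes that held at least 5 contractile or at least 5 hemoglobin UMIs left out, the ratios were 2.05 for Col18a1, 1.75 for Lamb1, 1.61 for Nid1 and 1.49 for Col4a1, so 3 members and not 4 were past the rule. The share of barcodes with a UMI of Prox1, a transcription factor of valve and lymphatic endothelium, was 62.6% in Fbn1 C1039G/+ and 50.4% in WT, and 5 WT but 0 Fbn1 C1039G/+ barcodes were rich in lymphatic transcripts (Ccl21a, Mmrn1, Reln). Restricted to barcodes with under 0.25% of UMIs from the interstitial rule genes, the ratios of Fbn1 C1039G/+ over WT were 3.09 for Col18a1, 2.07 for Nid1, 1.85 for Lamb1 and 1.71 for Col4a1, none smaller than with all endothelial barcodes. The ratio was above 1 in cells of either sex for the 4 genes, with Col18a1 at 1.90, Nid1 at 1.47, Lamb1 at 1.61 and Col4a1 at 1.34 in barcodes with Xist and no Y-linked UMI (183 in Fbn1 C1039G/+ and 131 in WT). They were at 2.59, 2.07, 2.15 and 1.84, in that gene order, in barcodes with a Y-linked UMI and no Xist (100 and 94). The Col4a1 value is close to the 1.5-fold rule, and it was 1.34 when the interstitial threshold was set at 2%, 1.49 with an endothelial threshold of 10 UMIs, 1.44 with each barcode at equal weight and 1.42 after thinning to 3000 UMIs.

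In interstitial barcodes, Col8a1 alone was higher by the same rule. Its level was 163 CPM (160.3 to 166) in Fbn1 C1039G/+ and 88.9 CPM (86.9 to 91.0) in WT, a ratio of 1.83 (1.78 to 1.89). This was 1 of 9 measured members, with 0 of 9 lower, against 0.945% of 6563 measured genes higher and 1.42% lower. Col18a1 followed at 1.43, at 42.5 against 29.8 CPM, then Hspg2 at 1.33, at 179 against 135 CPM, Col15a1 and Lamc1 at 1.19 each, and Col4a2 at 1.15 (1.12 to 1.19). Col4a1 was close to even at 1.02, and relative to the median gene its ratio was 0.998. Nid1, at 0.960 (0.936 to 0.984), and Lamb1, at 0.842 (0.806 to 0.880), were lower in Fbn1 C1039G/+, Lamb1 with 43.5 against 51.6 CPM. Nid2 stayed under 20 CPM, with a ratio of 0.995 (0.923 to 1.07). The members' median log2 ratio was 0.25, against 0.035 over all measured genes.

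Endothelial transcripts were also higher in Fbn1 C1039G/+ interstitial barcodes, as given above. With barcodes that carry markers of another class left out, the interstitial ratio was 1.87 for Col8a1, 1.38 for Col18a1 and 1.29 for Hspg2. For Col8a1 more barcodes were positive, 37.1% against 25.9%, and at 3000 UMIs 22.2% (21.2% to 23.1%) of Fbn1 C1039G/+ against 13.6% (12.9% to 14.4%) of WT interstitial barcodes. The Col8a1 ratio was 2.24 in barcodes with Xist and no Y-linked UMI and 1.53 in barcodes with a Y-linked UMI and no Xist, so it was above 1.5 in cells of either sex, and the number of mice behind each is not given in the sources used here. In macrophage barcodes Col4a1 was at 9.09 CPM in Fbn1 C1039G/+ and 23.3 CPM in WT, and Col15a1 at 17.4 and 33.1 CPM. These were the only members to reach 20 CPM there, and they did so through WT alone, so the difference is given as a description. The interstitial rule genes in those barcodes were also lower, at 563 CPM against 1028 CPM.

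**Figure D3:**
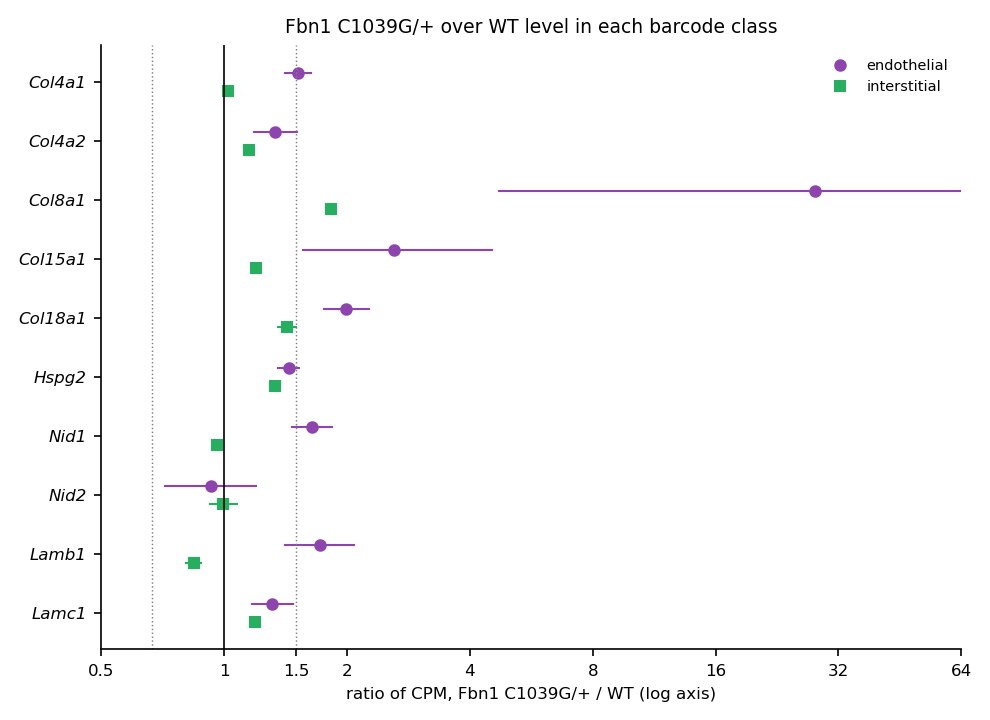
Ratio of CPM in Fbn1 C1039G/+ over WT (log axis) for each gene, with circles for endothelial barcodes, squares for interstitial barcodes, lines for 95% counting intervals and dotted lines at 1.5-fold. Endothelial ratios of Col18a1, Lamb1, Nid1 and Col4a1 lie right of 1.5, where the only interstitial ratio is that of Col8a1. The endothelial Col8a1 ratio rests on 36 UMIs against 1, and its interval runs past the right edge.

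Within the endothelium, Col18a1 went with Prox1. Endothelial barcodes with a Prox1 UMI held Col18a1 at 225 CPM in Fbn1 C1039G/+ and 126 CPM in WT, and those without held 77.4 and 41.3 CPM, ratios of 2.91 (2.36 to 3.62) and 3.05 (2.30 to 4.10). Nid1 was higher with Prox1 by 1.65 (1.39 to 1.95) in Fbn1 C1039G/+ and 2.28 (1.82 to 2.88) in WT, and Lamb1 by 1.52 (1.15 to 2.02) and 2.13 (1.45 to 3.21). Hspg2 differed less, with 703 and 490.1 CPM with Prox1 and 599 and 437 CPM without, ratios of 1.17 and 1.12. By the 2-fold rule, 1 of 9 measured members was higher and 1, Col15a1, was lower in Fbn1 C1039G/+, and 3 of 8 were higher and 0 lower in WT. Col15a1 was at 9.74 CPM with Prox1 and 25.01 CPM without in Fbn1 C1039G/+ and at 6.43 and 3.44 CPM in WT. It reached 20 CPM in only 1 of these sets, so its lower call follows in part from the level filter. The background was 2.39% higher and 2.11% lower in Fbn1 C1039G/+ and 4.51% higher and 2.44% lower in WT. The sets are ranges and not types, since absence of a UMI is partly a matter of depth: the median was 13117 and 14631.5 UMIs with Prox1 and 7471 and 9214 without.

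The genotype contrast was present on both sides of this split. Among barcodes with a Prox1 UMI, Col18a1 had a ratio of Fbn1 C1039G/+ over WT of 1.79 (1.56 to 2.05) and was the only 1 of 8 measured members past the rule, with 0 lower (3.97% of genes were higher and 3.97% lower). Among barcodes without, 5 of 8 were past it and 0 lower (4.77% of genes were higher and 3.81% lower): Lamb1 at 2.11, Nid1 at 2.00, Col18a1 at 1.87, Col4a1 at 1.59 and Col4a2 at 1.51. In these barcodes hemoglobin genes summed to 2829 CPM in Fbn1 C1039G/+ and 33.1 CPM in WT, contractile genes to 564 and 55.8 CPM, and cycling genes to 368 and 97.1 CPM. With the 7 and 5 barcodes that held at least 5 contractile or at least 5 hemoglobin UMIs left out, Lamb1 was at 2.31, Nid1 at 1.78 and Col18a1 at 1.77, while Col4a1 (1.44) and Col4a2 (1.41) were under the rule. The part of the cycling genes was not tested. The difference between these sets was not tested.

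**Figure D4:**
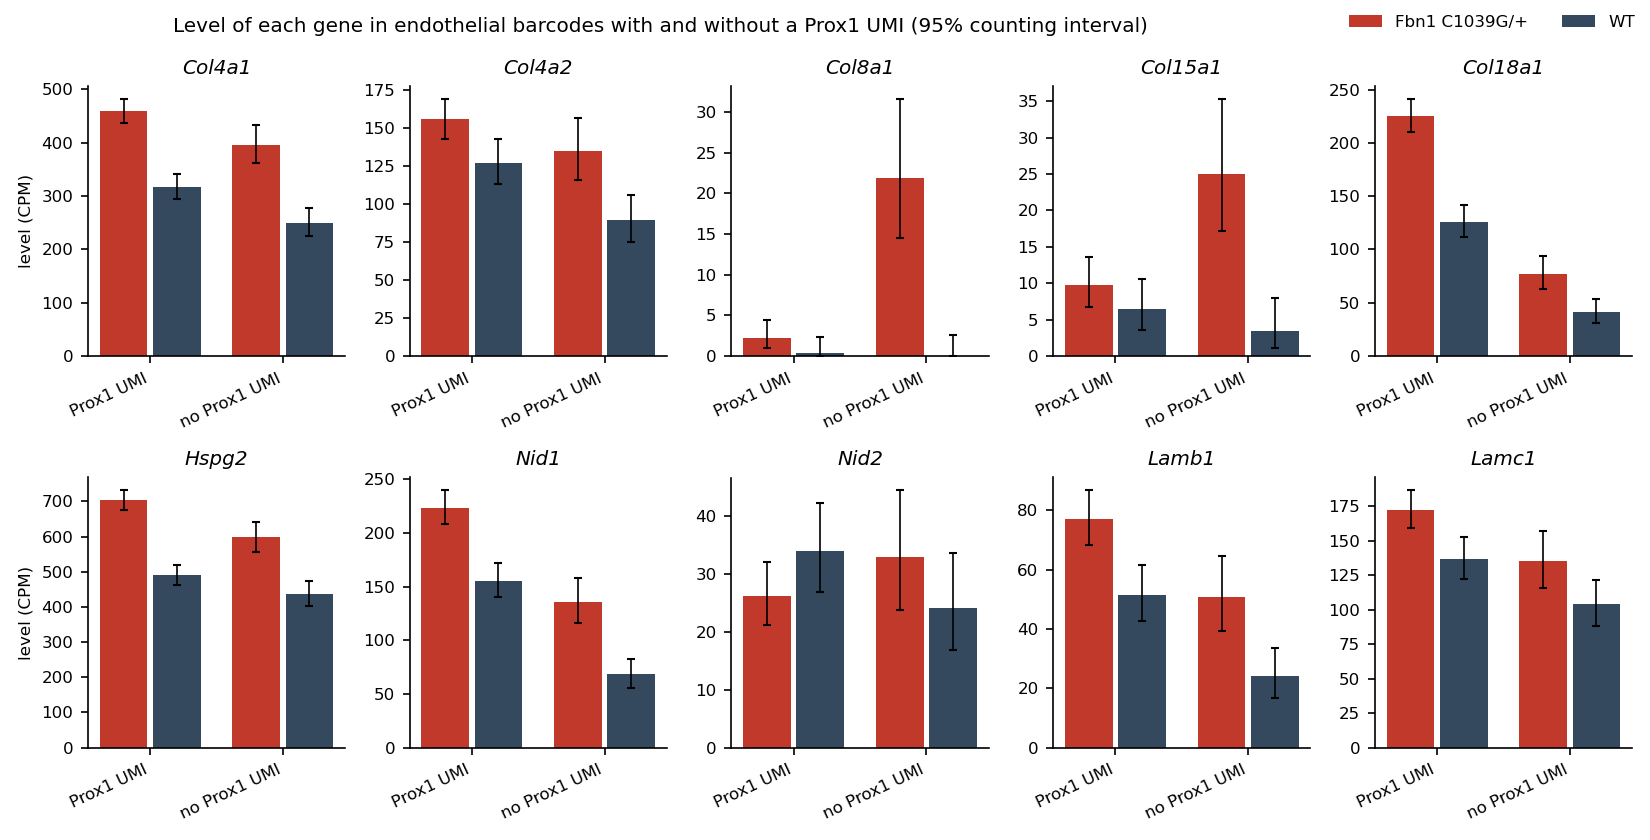
Level (CPM, linear axes from 0) of each gene in endothelial barcodes with and without a Prox1 UMI, with Fbn1 C1039G/+ bars left of WT bars and 95% counting intervals as whiskers. Col18a1 is highest with Prox1 in both libraries, at 225 and 126 CPM, while Hspg2 is similar with and without it.

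Interstitial barcodes were compared along 9 marker ranges, each the barcodes in the top 10% for a marker list, or with any UMI for Notch3 and for the cycling genes. Barcodes with Notch3, a receptor of mural and some valve interstitial cells, had the highest levels of most members. Col4a1 was at 610.1 CPM in Fbn1 C1039G/+ and 687 CPM in WT inside this range, 3.20-fold and 3.95-fold its level outside, and Col4a2 was at 279.7 and 289 CPM, 2.62-fold and 3.34-fold. Col18a1, Lamb1 and Nid2 were between 2.14-fold and 2.68-fold, Col8a1 was at 1.995-fold and 2.32-fold and Col15a1 at 1.74-fold and 2.23-fold, while Hspg2 was at 1.12-fold and 1.05-fold. By the 2-fold rule 5 of 10 members were higher inside the range in Fbn1 C1039G/+ and 7 of 10 in WT, against 2.72% and 3.86% of genes, and 0 were lower, against 1.45% and 2.16%. Nid2 was under 20 CPM outside the range and passed the level filter through the range alone. Its higher calls follow in part from that. Median depth was 11019 UMIs inside and 10033 outside in Fbn1 C1039G/+ and 9835 and 10099 in WT.

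Inside the contractile range (Acta2, Tagln, Cnn1) the collagen chains were higher than outside, and Lamb1 and the nidogens were near even. Col4a1 was 2.14-fold and 2.95-fold its level outside, Col4a2 1.88-fold and 2.80-fold, and Col8a1 1.78-fold and 2.35-fold, in Fbn1 C1039G/+ and WT. Lamb1 (0.951 and 1.04), Nid1 (1.01 and 1.07) and Nid2 (0.983 and 0.945) stayed close to 1. By the rule, 1 of 9 members in Fbn1 C1039G/+ and 3 of 9 in WT were higher, against 0.663% and 0.965% of genes, and 0 were lower, against 0.859% and 0.603%. Col4a1 was lower in Fbn1 C1039G/+ than in WT inside the contractile range, at 426 against 562 CPM, and inside the mural range (Rgs5, Kcnj8, Abcc9, Higd1b, Myh11), at 214 against 318 CPM. Outside them it was slightly higher, with ratios of 1.04 and 1.08, so the even level over all interstitial barcodes joins opposite directions, a difference that was not tested. The mural range is a range of marker share and not a cell type. Inside it a single gene gave 1114 of the 1321 CPM of the list in Fbn1 C1039G/+ and 1044 of 1409.5 CPM in WT.

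Ranges with low levels differed in which members they lacked. Barcodes rich in Rspo3 and Angpt1, a potentiator of Wnt signalling and an angiopoietin, held Col8a1 at 19.0 CPM in Fbn1 C1039G/+ and 6.63 CPM in WT, 0.109-fold and 0.0677-fold its level outside, and Col4a1 at 0.381-fold and 0.363-fold. Their Nid1 was near even, at 0.977-fold and 0.821-fold. Barcodes rich in the cartilage-type genes Chad, Cilp2, Comp and Thbs4 had Col18a1 at 0.205-fold and 0.295-fold, Lamb1 at 0.261-fold and 0.241-fold and Nid1 at 0.341-fold and 0.372-fold, but Hspg2, a proteoglycan also known from cartilage, at 0.819-fold and 0.972-fold. In the Rspo3 range 5 of 9 members were at least 2-fold lower in each library (2.82% and 2.63% of genes), and in the cartilage range 4 of 9 (3.61% and 3.72%). Col8a1 was under 20 CPM inside the Rspo3 range and passed the level filter there only through the barcodes outside it. The same held for Col18a1 and Lamb1 in the cartilage range, so their lower calls follow in part from that. No member was 2-fold higher in either range, where 1.59% and 1.38% of genes were in the Rspo3 range and 1.92% and 2.00% in the cartilage range. The Fbn1 C1039G/+ over WT ratio of Col8a1 was above 1 in all 9 ranges, from 1.16 (1.02 to 1.32) in the cartilage range to 2.86 (2.05 to 4.03) in the Rspo3 range, and was 1.82 in barcodes in none of them. Because Col8a1 was under 20 CPM in the Rspo3 range of both libraries, its ratio there does not count as measured.

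**Figure D5:**
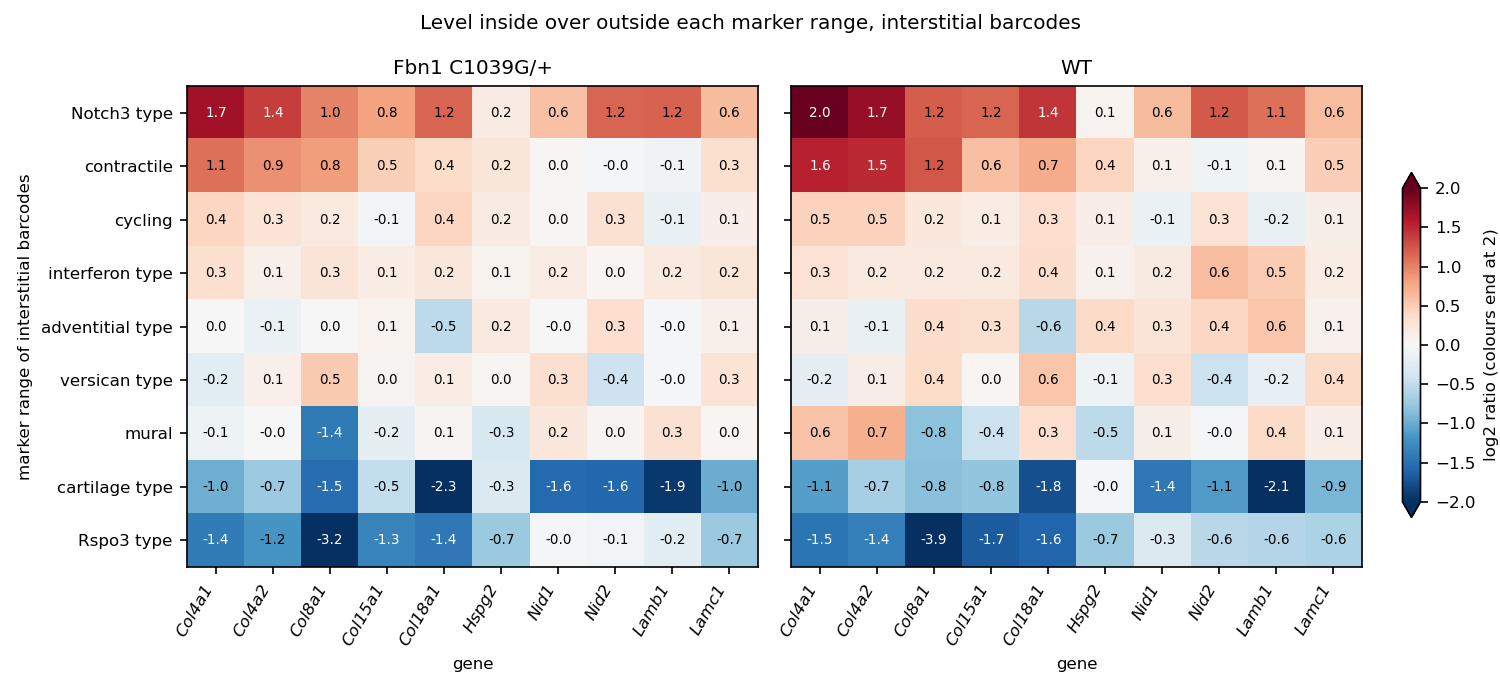
Log2 ratio of CPM inside over outside each of 9 marker ranges (rows) of interstitial barcodes for each gene (columns), with Fbn1 C1039G/+ on the left and WT on the right. The Notch3 row is positive for all 10 genes in both libraries, the Rspo3 and cartilage rows are negative or near 0, and the Hspg2 column varies least among the abundant genes.

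The other basement membrane genes were read from a list of 52 chains, linkers, receptors and enzymes. Partner chains split by class. Lama5, the laminin alpha chain of endothelial basement membranes, was at 63.4 CPM in Fbn1 C1039G/+ and 44.9 CPM in WT endothelial barcodes, 5.89-fold and 5.40-fold its interstitial level, and Lama4 was 2.01-fold and 2.10-fold. Lama2, the alpha chain of muscle basement membranes, was at 131 and 126 CPM in interstitial barcodes and at 3.28 and 2.11 CPM in endothelial barcodes. Of the 4 other collagen IV chains, Col4a5 and Col4a6 were mostly interstitial, and Col4a3 (0.904-fold and 0.939-fold in endothelial over interstitial barcodes) and Col4a4 (0.887-fold and 1.18-fold) were near even. Col4a5 was at 24.2 and 19.8 CPM in endothelial barcodes against 206 and 191 CPM in interstitial barcodes, and Col4a6 at 1.23 and 0.264 CPM against 36.6 and 34.8 CPM. Col8a2, the partner chain of Col8a1, had the same source as Col8a1, at 1.03 and 0.793 CPM against 44.6 and 52.2 CPM.

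Linkers and receptors were on both sides. Of 12 measured linkers and further matrix genes, 3 were higher and 5 lower in endothelial barcodes of Fbn1 C1039G/+, and 4 and 5 in WT. Sparc was at 868 CPM in Fbn1 C1039G/+ and 639 CPM in WT endothelial barcodes, against 8022 and 5769 CPM in interstitial barcodes. Fbln1 was at 0.036-fold and 0.027-fold its interstitial level. Tinagl1, a matrix protein that binds laminin, was at 419 CPM in Fbn1 C1039G/+ and 302 CPM in WT endothelial barcodes, 53.4-fold and 87.8-fold its interstitial level, and Ntn4, a laminin-binding netrin, 7.52-fold and 6.66-fold. The laminin receptor subunits Itga6 (5.77-fold and 7.02-fold), Itgb4 (37.4-fold and 88.7-fold) and Bcam (8.98-fold and 15.9-fold) were endothelial. Collagen receptors differed: Itga1 was at 0.115-fold and 0.171-fold and Ddr2 at 0.041-fold and 0.055-fold, while Ddr1 was at 1.10-fold and 1.11-fold and the shared beta subunit Itgb1 at 1.45-fold and 1.78-fold. Of 39 measured list genes, 9 were higher and 12 lower in endothelial barcodes of Fbn1 C1039G/+, and 10 were higher and 12 lower in WT, where the shares over all genes were 14.9% higher and 10.2% lower in Fbn1 C1039G/+ and 15.3% and 10.3% in WT. Many of these passed the level filter through 1 class alone. Tinagl1, Itgb4, Itga3, Bcam and Lama5 were under 20 CPM in interstitial barcodes of both libraries. Lama2, Col4a6, Col8a2, Smoc2, Itga1 and Ddr2 were under 20 CPM in endothelial barcodes of both. In WT, Egfl7, Col4a5 and Efemp1 were also under 20 CPM in their lower class. Such calls follow in part from the filter, and the largest ratios rest on low interstitial levels.

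By the 1.5-fold rule for genotypes, the shares over all genes were 3.22% higher and 3.23% lower in endothelial and 0.945% and 1.42% in interstitial barcodes, and the few list genes called are not set apart from these. In endothelial barcodes 1 of 31 measured list genes was higher, Fbln2 (93.2 against 42.0 CPM), and 2 were lower, Npnt (34.7 against 83.2 CPM) and Bcam (115 against 187 CPM), with a median log2 ratio of 0.16. In interstitial barcodes 1 of 34 was higher, Egfl7 (38.3 against 17.6 CPM), which is an endothelial gene and also on the endothelial check list, and 1 was lower, Efemp1 (21.5 against 36.1 CPM), with a median log2 ratio of 0.20. Col8a2 did not go with Col8a1, at 44.6 CPM in Fbn1 C1039G/+ against 52.2 CPM in WT, a ratio of 0.854 (0.818 to 0.892). Of the laminin chains with no call, Lamb2 was at 281 against 199 CPM in interstitial barcodes, and of the assembly enzymes Serpinh1, the collagen chaperone, at 803 against 628 CPM.

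Across 6 barcode classes in 2 libraries (12 points, log2(CPM + 1), 8803 genes), some members tracked each other. Col4a2 and Lamb1 had a Pearson r of 0.985, Col4a1 and Lamb1 of 0.970, and Hspg2 and Lamc1 of 0.967. Col8a1 and Col15a1 were apart from these, with an r between them of 0.699. The genes with the most similar profile were Ehd2, Gata4 and Spon1 for Col4a1, Tmtc1, Lamb1 and Cytl1 for Col4a2, Dclk1, Ldlrad3 and Tnc for Col8a1, and Pde4dip, Tnfaip6 and Pcdh18 for Col15a1. They were Tm4sf1, Shc1 and Procr for Col18a1, S100a16, Csgalnact1 and Ltbp1 for Hspg2, Grb10, Adgra2 and Cdc42bpa for Nid1, and Itga5, Arhgef2 and Smad1 for Nid2. For Lamb1 they were Col4a2, Tmtc1 and Col4a1, and for Lamc1 Aox1, Ddah2 and Wwtr1. The top r for each member ran from 0.936 (Col8a1) to 0.993 (Hspg2). The points share libraries and class depth, so these values are a description.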

How the data were processed

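Raw UMI counts per gene and barcode were deposited by the authors, not normalised, per the file headers. Cells were captured with the Chromium Single Cell 3′ kit, version 3.1, per the labels' protocols. Cell Ranger is given as 3.1.0, with mm10, per the submitters' processing notes, and as 5.0.1 per the file headers. Empty droplets were not used here, so free RNA was not subtracted. Of 32285 gene identifiers 32235 matched GENCODE M21. Promoter windows are from RefSeq (GRCm38.p6).

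UMIs were summed per class and library and given as CPM. Intervals are at 95%: exact Poisson for a level, exact conditional binomial for a ratio and exact Clopper-Pearson for a share. The ratio interval and the fold rule for genotypes were checked on simulated Poisson counts, which hold no extra spread between barcodes. The intervals for levels and shares were not checked in this way. They cover counting error only. No p-value was computed. Log2 ratios used a pseudocount of 1 CPM. No doublet caller was run. Barcodes with markers of a second class were left out as an alternative, as were other thresholds, scalings, thinning to 3000 UMIs and cells of either sex. Near the class limits, 290 Fbn1 C1039G/+ and 261 WT barcodes had 0.5% to 1% interstitial UMIs, 1289 and 1718 had 1% to 2%, and 45 and 30 endothelial barcodes had under 10 rule UMIs.

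All 10 members are named. From the list of other basement membrane genes, those past the fold rules and up to 3 more per role with the highest CPM could be named, and for each member the 3 genes with the highest Pearson r. Members, lists, marker ranges and rules were chosen with earlier results of these data known, and the range limits and the Prox1 split after the values were seen. The melanocyte set needed at least 10 UMIs. Python 3.11.15, numpy 2.4.6, pandas 2.3.3, scipy 1.17.1 and matplotlib 3.10.9 were used.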

Additional observations from a re-analysis of the deposited data

Results flagged for a closer look

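Nid1 and Lamb1 went opposite ways between the genotypes in the classes. The Fbn1 C1039G/+ over WT ratio of Nid1 was 1.64 in endothelial and 0.96 in interstitial barcodes. That of Lamb1 was 1.71 in endothelial and 0.842 in interstitial barcodes. With 1 library per genotype the difference between the classes was not tested.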

How the results depend on the processing

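No paired analysis was possible because each genotype had 1 library. The counts of members past the fold rules stayed within 1.5 times of the values given in 106 of 108 comparisons with another threshold, filter, scaling or set of barcodes, and in 36 of 42 with settings chosen after seeing the data. These comparisons include the counts of members lower in Fbn1 C1039G/+ than in WT, which were 0 in each setting. A change from 4 higher members to 3, as with thinning, or to 6, as with Y-linked endothelial barcodes, also fell within 1.5 times. Which members were called was not part of this comparison. With the interstitial threshold at 2%, 2 members (Col8a1, Col18a1) and not 1 were higher in Fbn1 C1039G/+ interstitial barcodes. In endothelial barcodes with a Prox1 UMI, 1 member (Col18a1) and not 4 was higher in Fbn1 C1039G/+. With Y-linked barcodes only, 5 members and not 2 were higher in endothelial than interstitial barcodes of Fbn1 C1039G/+ (Col4a1, Col18a1, Hspg2, Nid2, Lamb1). With endothelial barcodes without Prox1, 1 member (Hspg2) and not 2 was higher and 4 and not 2 were lower (with Nid1 and Lamb1) in WT, and in Fbn1 C1039G/+ the source ratio of Col18a1 was 1.82 and under the rule while Nid2, at 2.01, was past it. With contractile and hemoglobin barcodes left out of these as well, 1 member (Hspg2) was higher in each library and 4 were lower in WT, and Col18a1 was at 1.48 in Fbn1 C1039G/+ and 1.19 in WT. The causes were not tested.

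Some ratios close to 1, or resting on few UMIs, turned direction. The interstitial Col4a1 ratio of Fbn1 C1039G/+ over WT was 0.998 with the median ratio set to 1 and 0.979 in Y-linked barcodes, and the endothelial Col15a1 ratio was 0.886 in barcodes with under 0.25% interstitial UMIs. The endothelial over interstitial ratio of Nid1 was 0.926 in Fbn1 C1039G/+ without Prox1 and 1.02 in WT with it. That of Lamc1 was 0.990 in Fbn1 C1039G/+ and 0.970 in WT with equal weight for each barcode, 0.983 and 0.841 with thinning, and in WT 0.958 with the median ratio set to 1 and 0.951 without Prox1. Without Prox1 and without contractile and hemoglobin barcodes, it was 0.907 in Fbn1 C1039G/+ and 0.934 in WT, and in Fbn1 C1039G/+ Col4a2 was at 0.960 and Nid1 at 0.843. The endothelial Nid2 ratio of Fbn1 C1039G/+ over WT ran from 0.772 with Prox1 to 1.61 in Y-linked barcodes. Over the alternatives the Col8a1 interstitial ratio of Fbn1 C1039G/+ over WT ran from 1.53 to 2.24 and the endothelial Col18a1 ratio from 1.77 to 3.09. With 318 and 250 endothelial barcodes, the values of Col8a1 and Col15a1 in that class rest on few barcodes.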
